A study of Mus musculus with 11 samples.

Results

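The matrix of the endocardial cushions and valves was examined through 10 genes in embryonic mouse hearts: the hyaluronan synthase Has2, the proteoglycan Vcan (versican), the link protein gene Hapln1, the hyaluronan receptor Cd44, the proteases Adamts1, Adamts5 and Adamts9, the ADAMTS-like gene Adamtsl3, and the transcription factors Sox9 and Twist1. They were chosen by symbol for their known roles, out of 55487 gene identifiers, with earlier results of these data known. RNA was sequenced from whole E14.5 hearts of untreated embryos from Pde2A+/- × Pde2A+/- matings of the B6;129P2-Pde2A<tm1Dgen> line. The Pde2A-/- embryos of this line lack phosphodiesterase 2A, an enzyme that degrades cAMP and cGMP. The labels gave 5 Pde2A-/- (knockout) hearts, named A, B, 14, D and 15, and 6 Pde2A+/+ (wild-type) hearts, named 6, 7, 8, 11, E and H. The allele is constitutive, embryos of both sexes were used, and the litters are not given in the sources used here. All 10 genes passed the minimum of 10 reads over the 11 hearts, as did 24177 genes in all, and the least read member, Adamtsl3, had at least 79 reads in every heart.

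The cushions begin as swellings of extracellular matrix, the cardiac jelly, between the endocardium and the myocardium. Hyaluronan, a long sugar polymer made at the cell surface, and versican, which binds it, give this matrix its volume, and link protein stabilises their complex. Endocardial cells transform into mesenchyme that invades the matrix, and ADAMTS proteases later cleave versican as the cushions thin into valve leaflets and septa. TWIST1 is known from proliferating cushion mesenchyme, and SOX9 from valve precursor cells and cartilage.

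Per heart, between 35865537 and 42835382 reads were counted on the sense strand of genes. The cardiomyocyte markers Tnnt2, Myh6, Myh7, Actc1, Nppa and Myl7 summed to between 28590 and 37651 CPM (read counts scaled to a common library size by TMM, a normalization for library composition) in each heart, so that the hearts carried the markers of their label. Some libraries held markers of other organs. The 4 thymus markers summed to 53.4 CPM in wild-type replicate 7 and to at most 0.183 CPM in any other heart. Of the 4 lung markers, Nkx2-1 had 192 reads in wild-type replicate 11 and at most 11 in any other. The other lung markers were near 0 in replicate 11 (Cldn18 4 reads, Sftpc and Sftpb 0 reads each). The lung label of that heart therefore rests on Nkx2-1. The 4 liver markers summed to 34.6 CPM in knockout replicate D and to 39.2, 33.4 and 105 CPM in wild-type replicates 11, H and E, against at most 2.03 CPM in the other hearts. Results are therefore also given without wild-type replicates 7 and 11, and without all 5 of these hearts, an alternative that leaves 4 hearts against 2. The targeted gene could not check the labels: Pde2a (ENSMUSG00000110195, chromosome 7, 101421691 to 101512827) had between 0 and 2 reads in every heart of either genotype, and the counting gives a read that also lies on the overlapping gene model Gm45837 to neither gene.

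Of the 10 genes, 3 were higher in the knockout hearts at an adjusted p under 0.05 (edgeR's quasi-likelihood test, Benjamini-Hochberg over all 24177 genes): Vcan, Cd44 and Adamts1, by 1.26-, 1.21- and 1.27-fold. Adamtsl3 was the 1 gene called lower, and the 1 with a fold change of at least 2. Among all genes tested, 8.93% were called higher, 5.67% lower, and 0.372% lower by at least that fold. This background includes genes with as few as 10 reads over the 11 hearts. With edgeR's stricter filter on counts (filterByExpr), 4208 of 16853 genes were called in either direction. The same 4 of the 10 genes were called there. Knockout and wild-type values were fully separate for 2 of the 10 genes, Adamts1 and Adamtsl3, against 8.49% of all genes. The other 6 genes (Has2, Hapln1, Adamts5, Adamts9, Sox9 and Twist1) did not pass the test. The median log2 fold change of the 10 genes was 0.23, beside -0.02 over all genes, and it was 0.13 without knockout replicate A. Without wild-type replicates 7 and 11, 2 genes were called higher, Vcan and Adamts1, and Adamtsl3 was still called lower. Without all 5 hearts with other organs' markers, 0 were called higher by edgeR (2 at an unadjusted p under 0.05), and Adamtsl3 was still called lower.

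Promoter sequence is shown for the 4 genes that passed the test, because PDE2A acts on cAMP and genes that respond to cAMP often carry a cAMP response element (CRE, TGACGTCA, with the half-site TGACG). RefSeq windows on GRCm38.p6 were held for 7 of the 10 genes, and none was held for Has2, Adamts5 or Sox9. The lines below give the 250 bases before the annotated start, 5′ to 3′ on the strand of the gene, with matches to TGACG or to ACGTG, the core of hypoxia response elements, on either strand in capitals. The windows are Vcan at chr13:89742513-89742762 (minus strand), Cd44 at chr2:102901666-102901915 (minus), Adamts1 at chr16:85803114-85803363 (minus) and Adamtsl3 at chr7:82335444-82335693 (plus).
Vcan: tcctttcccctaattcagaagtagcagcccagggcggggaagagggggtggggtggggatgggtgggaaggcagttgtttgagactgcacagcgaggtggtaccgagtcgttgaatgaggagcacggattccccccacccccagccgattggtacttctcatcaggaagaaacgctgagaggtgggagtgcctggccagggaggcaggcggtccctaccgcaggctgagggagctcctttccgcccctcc
Cd44: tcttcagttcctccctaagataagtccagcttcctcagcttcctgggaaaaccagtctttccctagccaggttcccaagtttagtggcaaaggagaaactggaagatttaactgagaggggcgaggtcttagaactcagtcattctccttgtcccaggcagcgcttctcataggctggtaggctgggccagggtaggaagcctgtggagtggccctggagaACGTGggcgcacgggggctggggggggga
Adamts1: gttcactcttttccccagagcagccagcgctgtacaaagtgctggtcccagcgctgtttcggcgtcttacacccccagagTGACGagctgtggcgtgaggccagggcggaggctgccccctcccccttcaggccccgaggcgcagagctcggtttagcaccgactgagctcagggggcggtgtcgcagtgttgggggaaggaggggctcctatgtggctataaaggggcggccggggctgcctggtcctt
Adamtsl3: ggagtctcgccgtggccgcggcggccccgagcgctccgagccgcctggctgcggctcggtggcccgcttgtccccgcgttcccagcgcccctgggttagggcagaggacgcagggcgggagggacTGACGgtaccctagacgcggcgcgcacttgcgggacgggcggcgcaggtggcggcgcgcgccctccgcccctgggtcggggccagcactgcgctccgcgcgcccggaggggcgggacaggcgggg

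The full CRE was found in none of the 7 windows and in 1.55% of all 32851 promoter windows of this length. The half-site TGACG, which the full CRE contains, was found in 4 of the 7 (Adamts1, Adamts9, Adamtsl3 and Twist1) and in 17.8% of all windows. In Adamts1 it began 170 bases before the start and in Adamtsl3 125 bases before it. ACGTG was found in 2 of the 7, Cd44 and Twist1, and in 16.6% of all windows. The motif CANNTG, the E-box that basic helix-loop-helix factors such as TWIST1 bind, was found in 3 of the 7 (Vcan, Adamts9 and Adamtsl3) and in 66.2% of all windows. Genes on both sides of the test therefore carried each of the half-site, ACGTG and E-box letters. The windows were also unlike in base composition: GC made up 56.4% of the Cd44 window, 62.4% of the Vcan window, 65.6% of the Adamts1 window and 80.0% of the Adamtsl3 window, with a median of 52.4% over all windows.

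Levels per length of exon set the order of the 10 genes within the wild-type hearts. Vcan stood highest, at 29.4 ± 3.37 CPM per kb of exon (SD, n = 6), and Adamts1 followed at 23.7 ± 1.18 CPM per kb. The ranges of these 2 genes overlapped, and Adamts1 stood apart from the gene after it by 2.72-fold. A middle group of 6 genes ran from Twist1 (8.70 ± 1.56 CPM per kb) through Cd44, Adamts9, Hapln1 and Sox9 to Adamts5 (3.37 ± 0.626 CPM per kb), and the ranges of neighbours in that order overlapped. Has2, at 1.17 ± 0.214 CPM per kb, and Adamtsl3, at 0.767 ± 0.274 CPM per kb, were the lowest, and their ranges overlapped too. From Vcan to Adamtsl3 the level per length fell by a factor of 38.4. In the knockout hearts the same order held except that Twist1 moved from the third to the fifth place, behind Cd44 and Adamts9. In whole hearts, fewer cells of a type and less RNA per cell cannot be told apart.

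**Figure D1:**
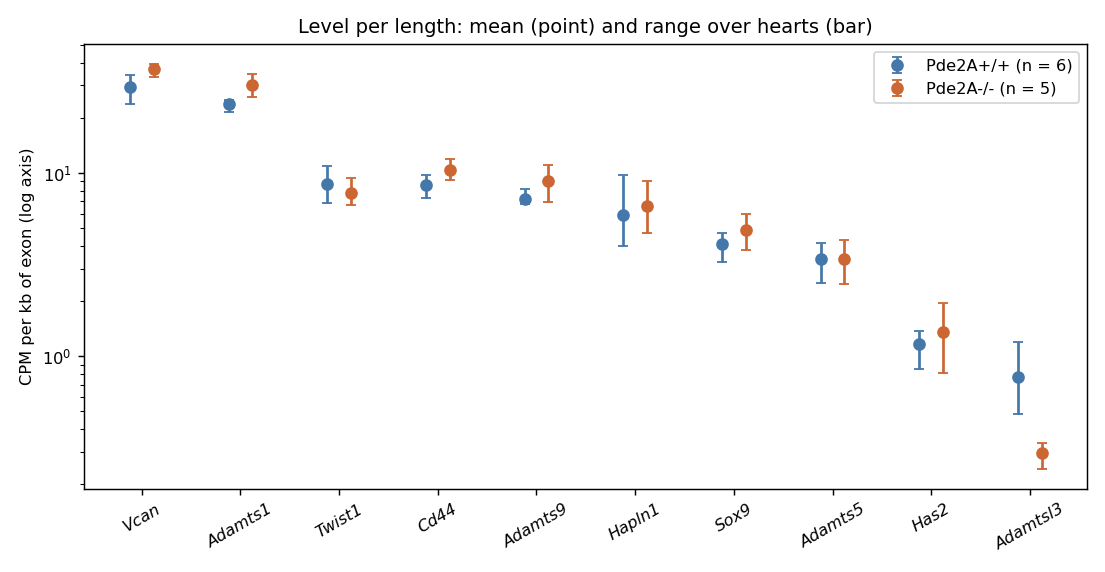
Level of each gene in CPM per kb of merged exon on a log axis, with points for the mean and bars for the lowest and highest heart of the 6 wild-type and 5 knockout hearts. Vcan and Adamts1 stand above the others in both genotypes, and Adamtsl3 is the lowest gene, with knockout hearts (0.244 to 0.334 CPM per kb) below wild-type hearts (0.482 to 1.20 CPM per kb).

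Has2, which makes most of the hyaluronan of the cardiac jelly (ENSMUSG00000022367, GRCm38 chromosome 15, 56665627 to 56694539), did not differ between the genotypes beyond the spread of the hearts. Knockout replicates A and B had 8.22 and 7.93 CPM, replicate 14 had 5.52 CPM, and replicates D and 15 had 3.75 and 3.42 CPM. The wild-type hearts ran from 3.59 through a median of 5.22 to 5.82 CPM. A and B thus lay above every wild-type heart, and 15 lay below every one of them. The log2 fold change was 0.22 (SE 0.23, 95% CI -0.27 to 0.71, adjusted p = 0.570 by edgeR). The coefficient of variation was 39.1% over the knockout hearts and 18.3% over the wild-type hearts.

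Vcan (ENSMUSG00000021614, chromosome 13, 89655312 to 89742509), the most abundant of the 10, was higher in the knockout hearts. They had 530.1, 539, 483, 560.4 and 566 CPM in replicates A, B, 14, D and 15. The wild-type hearts ran from 343 through 427 to 491 CPM. Replicates A, B, D and 15 lay above every wild-type heart, and 14 lay below 1 of them. The rise was 1.26-fold, a log2 fold change of 0.33 (SE 0.08, 95% CI 0.17 to 0.50, adjusted p = 0.0147 by edgeR). It stayed past the threshold when any 1 heart was left out. Without the 5 hearts that held markers of other organs the log2 fold change was 0.22 and the adjusted p 0.275.

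Hapln1 (ENSMUSG00000021613, chromosome 13, 89539796 to 89611652) lies 43.7 kb from Vcan and encodes the link protein that ties versican to hyaluronan. Its level was 53.0, 42.8, 38.0, 32.0 and 27.9 CPM in knockout replicates A, B, 14, D and 15. In the wild-type hearts it ran from 23.4 through 32.0 to 57.6 CPM. Every knockout heart lay inside the wild-type range, whose top was set by wild-type replicate 8. Between the genotypes the log2 fold change was 0.16 (SE 0.22, 95% CI -0.32 to 0.64, adjusted p = 0.689 by edgeR). The log2 ratio of Vcan to Hapln1 within a heart, a comparison chosen after the values had been seen, was 3.82 ± 0.41 (SD, n = 5) in the knockout and 3.68 ± 0.47 (n = 6) in the wild-type hearts (exact permutation test over 462 splits, two-sided p = 0.602, adjusted p = 0.602 over 2 pairs). The 2 neighbouring genes were thus on different sides of the threshold without a detectable difference in their ratio.

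Cd44 (ENSMUSG00000005087, chromosome 2, 102811141 to 102901665), a hyaluronan receptor of mesenchymal, blood and other cells, was higher in the knockout hearts by 1.21-fold. The knockout hearts A, B, 14, D and 15 had 61.7, 70.0, 68.3, 69.7 and 81.0 CPM. The wild-type hearts ran from 49.3 through 58.1 to 65.9 CPM. Replicates B, 14, D and 15 lay above every wild-type heart, and A lay within their range. The log2 fold change was 0.27 (SE 0.08, 95% CI 0.10 to 0.45, adjusted p = 0.0386 by edgeR). This call was lost when any 1 of knockout replicates 14, D or 15 or wild-type replicates 7, 11, E or H was left out, with adjusted p between 0.0552 and 0.0944. The 6 macrophage markers, cells that carry CD44, summed to between 189 and 235 CPM in the knockout and between 95 and 151 CPM in the wild-type hearts, and 5 of the 6 were called higher. Their part in the Cd44 result was not tested.

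**Figure D2:**
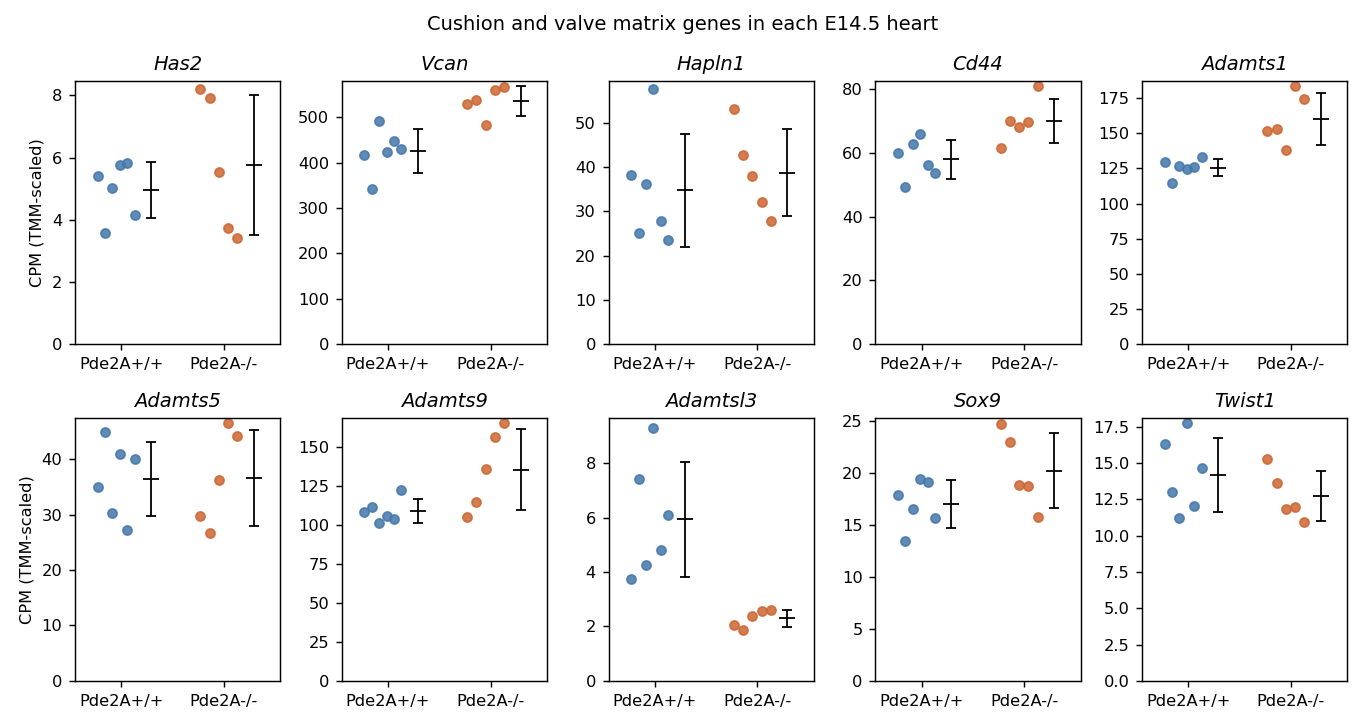
CPM of each of the 10 genes in each heart, wild-type (6 points) and knockout (5 points), with the mean and SD in black and every axis starting at 0. The genotypes separate fully for Adamts1, with 138 to 184 CPM in the knockout against 115 to 133 CPM in the wild-type hearts, and for Adamtsl3, while Hapln1 spreads widely in both genotypes and Has2 more among the knockout hearts.

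Among the proteases known to cleave versican, Adamts1 rose, Adamts9 came close to the threshold and Adamts5 showed no detectable difference. Adamts1 (ENSMUSG00000022893, chromosome 16, 85793827 to 85803113) had 151, 153, 138, 184 and 174 CPM in knockout replicates A, B, 14, D and 15. Wild-type values ran from 115 through 126 to 133 CPM. Every knockout heart lay above every wild-type heart. The rise was 1.27-fold, a log2 fold change of 0.35 (SE 0.07, 95% CI 0.20 to 0.50, adjusted p = 0.00661 by edgeR). It kept its call when any 1 heart was left out; without the 5 hearts with other organs' markers the log2 fold change was 0.31 and the adjusted p 0.191.

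Adamts5 (ENSMUSG00000022894, chromosome 16, 85856173 to 85901828) lies 53.1 kb from Adamts1 and is known as a versican-cleaving protease of valve maturation. It had 29.6, 26.6, 36.2, 46.5 and 44.2 CPM in knockout replicates A, B, 14, D and 15, and between 27.2 and 44.9 CPM, with a median of 37.5, in the wild-type hearts. Replicates D and 15 were thus high, A and B low, and the genotypes overlapped. The log2 fold change was 0.01 (SE 0.16, 95% CI -0.33 to 0.35, adjusted p = 0.983 by edgeR). The log2 ratio of Adamts1 to Adamts5, also chosen after the values had been seen, was 2.15 ± 0.27 (SD, n = 5) in the knockout and 1.81 ± 0.31 (n = 6) in the wild-type hearts (exact permutation test, two-sided p = 0.0823, adjusted p = 0.165 over the 2 pairs, where the smallest p that 462 splits allow is 0.0022).

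Adamts9 (ENSMUSG00000030022, chromosome 6, 92772699 to 92943492), a protease needed for the shaping of valves, had 105, 115, 136, 156 and 166 CPM in knockout replicates A, B, 14, D and 15. Those of the wild-type ran from 101 through 107 to 123 CPM. Replicates 14, D and 15 lay above every wild-type heart, while A and B lay among them. For the genotypes this gave a log2 fold change of 0.31 (SE 0.10, 95% CI 0.09 to 0.54, adjusted p = 0.0623 by edgeR). The gene passed the threshold with DESeq2 (adjusted p = 0.0260), with Xist as a covariate (0.0350), and by edgeR when knockout replicate A (0.00930) or B (0.0316) was left out. Those were the only 2 of the 11 fits without 1 heart in which it passed. Without knockout replicate 14, D or 15 the adjusted p by edgeR was 0.114, 0.168 and 0.168. Over all alternatives it reached 0.347. Gene models on the opposite strand cover 12.0% of the exons of Adamts9; over the 10 genes at most 6.38% of reads lay on the opposite strand.

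Adamtsl3 (ENSMUSG00000070469, chromosome 7, 82335694 to 82614450), a secreted protein of the matrix that resembles the ADAMTS proteases without their catalytic part, fell in the knockout hearts. The knockout replicates A, B, 14, D and 15 had 2.06, 1.89, 2.39, 2.58 and 2.59 CPM. The wild-type hearts ran from 3.73 through 5.45 to 9.30 CPM, with replicate 7 lowest and replicate 8 highest. Every knockout heart lay below every wild-type heart, and the knockout hearts were close together (coefficient of variation 13.7%, against 35.7% in the wild-type). The level was 2.58-fold lower, a log2 fold change of -1.37 (SE 0.22, 95% CI -1.85 to -0.88, adjusted p = 0.00194 by edgeR). It was between -1.47 and -1.19 when 1 heart was left out and stayed past the threshold each time. Over all alternatives the adjusted p of Adamtsl3 reached 0.0403 by edgeR. Without the 5 hearts with other organs' markers, only wild-type replicates 6 (4.27 CPM) and 8 (9.30 CPM, the highest) were left in the wild-type group. The gene lies 18.8 Mb from Pde2a on the same chromosome. Of the 75 other genes tested within 2 Mb of Adamtsl3, 3 were called higher and 4 lower, or 9.33%, against 14.6% of all genes. Within 1 Mb, 0 of 30 were called higher and 2 lower. Within 5 Mb, 3 of 124 were called higher and 10 lower. Over all genes, 8.93% were called higher and 5.67% lower. The part of the region around the targeted allele in the fall was not tested.

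Sox9 (ENSMUSG00000000567, chromosome 11, 112782224 to 112787760) did not pass the test. Its level was 24.7, 22.9, 18.9, 18.8 and 15.8 CPM in knockout replicates A, B, 14, D and 15, and the wild-type hearts ran from 13.4 through 17.2 to 19.4 CPM. Only A and B lay above every wild-type heart. The log2 fold change was 0.25 (SE 0.12, 95% CI -0.01 to 0.51, adjusted p = 0.182 by edgeR). The 5 cartilage markers, from tissue that also expresses Sox9, summed to at most 4.02 CPM in any heart. Col2a1, a cartilage-type matrix gene, is not among these 5 and was chosen after its values were seen. It had 40.0 to 77.7 CPM in the knockout and 51.2 to 113 CPM in the wild-type hearts. The part of cartilage in the Sox9 level was not tested.

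Twist1 (ENSMUSG00000035799, chromosome 12, 33957671 to 33959829) had 15.3, 13.6, 11.8, 11.9 and 10.9 CPM in knockout replicates A, B, 14, D and 15. Wild-type hearts ran from 11.2 through 13.8 to 17.8 CPM. The groups overlapped except that 15 lay just below the lowest wild-type heart. Its log2 fold change was -0.15 (SE 0.13, 95% CI -0.42 to 0.11, adjusted p = 0.445 by edgeR).

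**Figure D3:**
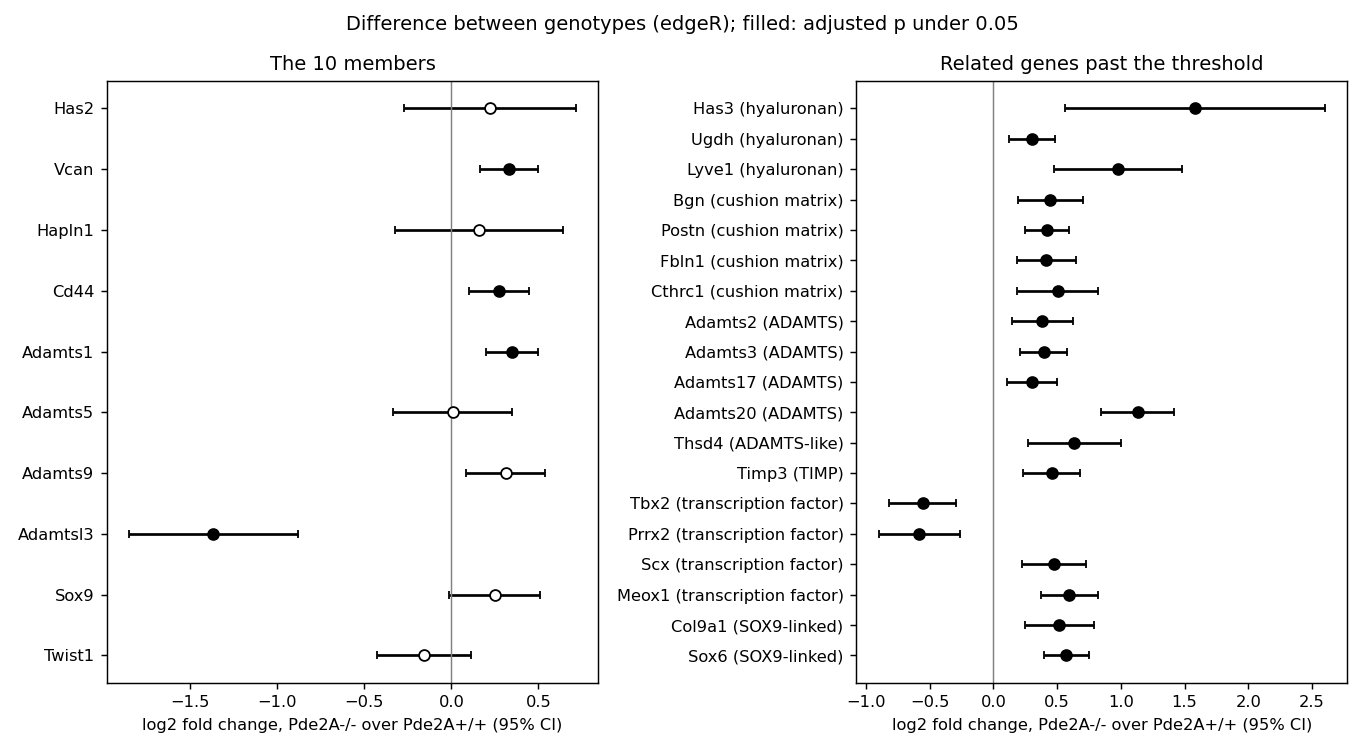
Log2 fold change of knockout over wild-type hearts with 95% confidence intervals from edgeR, for the 10 genes (left) and for the 19 related genes named by rule (right, all past the threshold by that rule); filled points have an adjusted p under 0.05. The intervals of Vcan, Cd44 and Adamts1 lie above 0 and that of Adamtsl3 (-1.85 to -0.88) below it; the interval of Adamts9 (0.09 to 0.54) lies above 0 without passing the adjusted threshold.

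Several of the genes ranked the 5 knockout hearts alike. Has2, Hapln1 and Sox9 each ranked the hearts A, B, 14, D and 15 from highest to lowest, and Twist1 did so but for 14 and D. Adamts9 ranked them in exactly the opposite order, and Adamts5 had D and 15 high and A and B low. So 3 of the 10 genes had the first ranking and 1 the opposite one, whereas 4.79% and 4.70% of all genes tested did. This pattern was noticed after the values had been seen, and so it is a description without a test. The span from the highest to the lowest knockout heart was 2.41-fold for Has2, 1.90-fold for Hapln1, 1.75-fold for Adamts5, 1.58-fold for Adamts9, 1.57-fold for Sox9 and 1.17-fold for Vcan. In the wild-type hearts the spans of these genes were 1.62-, 2.46-, 1.65-, 1.21-, 1.45- and 1.43-fold, so that Hapln1 and Vcan spanned more among the wild-type than among the knockout hearts.

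The same hearts differed in markers of cell types. The 5 fibroblast and mesenchyme markers summed to 4634 and 4457 CPM in A and B, and to 5837, 7536 and 6440 CPM in 14, D and 15. The epicardial markers summed to 248 and 276 CPM in A and B and to between 349 and 353 CPM in the other 3. Among the wild-type hearts, replicates 11 and E had the highest fibroblast sums (7327 and 6411 CPM), the lowest Has2 (3.59 and 4.15 CPM) and the lowest Hapln1 (25.1 and 23.4 CPM), and were also 2 of the hearts with liver markers. Wild-type replicate 8 did not share this pattern: it had the third highest fibroblast sum (5412 CPM) and the highest epicardial sum (407 CPM) of the wild-type hearts, with the highest Hapln1 (57.6 CPM) and a Has2 of 5.75 CPM. Cardiomyocyte markers were lowest in A (28817 CPM) and highest in 15 (37651 CPM) of the knockout hearts. The part of these differences in the ranking was not tested.

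**Figure D4:**
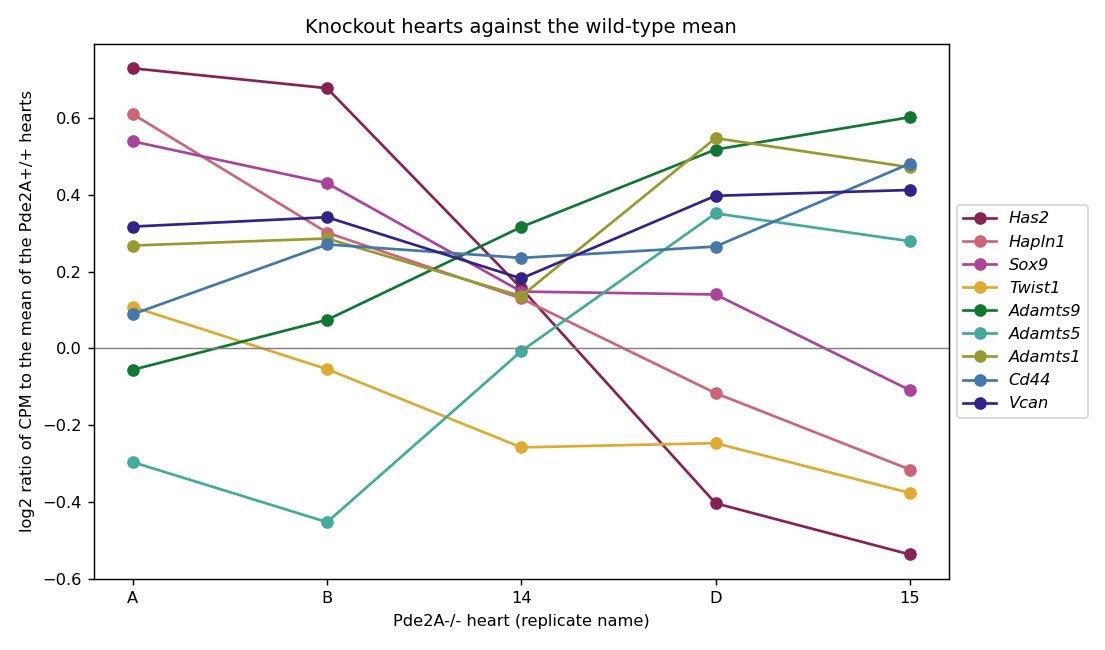
Log2 ratio of CPM in each knockout heart to the mean of the 6 wild-type hearts, for 9 of the 10 genes, Adamtsl3 being left out; the hearts are placed in the order noticed in the data, and lines only join the values of a gene. Has2, Hapln1 and Sox9 go down from A to 15 and Adamts9 goes up, so that Has2 and Adamts9 take opposite places at either end, while Vcan stays between 0.18 and 0.41.

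Related genes were taken from 7 lists, 89 genes of which 88 were tested. In all, 22 were called higher and 2 lower, and 64 did not pass. Over all genes tested, 8.93% were called higher and 5.67% lower, which is also the background of the counts per list. The median log2 fold change was 0.14, beside -0.02 over all genes. With edgeR's stricter filter on counts, 28 related genes were called in either direction, beside 4208 of all 16853 genes. The count of 24 fell to 13 without knockout replicate D, to 11 without knockout replicate 15 and to 13 without wild-type replicate 6. It was 13 without wild-type replicates 7 and 11, and 2 without the 5 hearts with markers of other organs. Of the 19 related genes named by rule, 8 stayed past the threshold whichever heart was left out (Postn, Adamts3, Adamts20, Timp3, Tbx2, Meox1, Col9a1 and Sox6), and the other 11 lost it without at least 1 heart.

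Among 16 genes of hyaluronan synthesis, turnover and binding, 4 were called higher and 12 did not pass. Ugdh, whose enzyme supplies the glucuronic acid of hyaluronan, had 76.6 ± 9.46 CPM in the knockout and 62.0 ± 5.45 CPM in the wild-type hearts (log2 fold change 0.30, SE 0.08, adjusted p = 0.0289 by edgeR). Has3, another hyaluronan synthase, had 3.11, 3.04, 9.66, 11.8 and 23.1 CPM in knockout replicates A, B, 14, D and 15, and between 2.33 and 6.47 CPM in the wild-type hearts (log2 fold change 1.58, SE 0.47, adjusted p = 0.0404 by edgeR). It was thus low in the hearts where Has2 was high. Without knockout replicate 15 its log2 fold change was 1.04 and its adjusted p 0.137 by edgeR. Has3 kept its call in only 3 of the 11 fits without 1 heart. Lyve1, a hyaluronan receptor of lymphatic endothelium and of some macrophages, had 20.8 ± 6.59 against 10.6 ± 3.29 CPM (log2 fold change 0.98, SE 0.23, adjusted p = 0.0169 by edgeR), beside the macrophage sums above. The fourth gene, Has1, averaged under 1 CPM.

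Of 18 proteoglycans and other cushion matrix genes, 6 were called higher and 12 did not pass. Postn (periostin, a matrix protein of maturing valves) had 736 ± 69.2 CPM in the knockout and 549 ± 57.4 CPM in the wild-type hearts, with no overlap (log2 fold change 0.42, SE 0.08, adjusted p = 0.00484 by edgeR). Cthrc1, Bgn (biglycan) and Fbln1 (fibulin 1, a cofactor of ADAMTS1) had log2 fold changes of 0.50, 0.45 and 0.41. Emilin1 (0.23) and Fn1 (fibronectin, 0.26), outside the naming rule and chosen after their values were seen, were the other two. The fibroblast and mesenchyme markers ranged from 4457 to 7536 CPM in the knockout and from 3887 to 7327 CPM in the wild-type hearts, with 2 of the 5 called higher, and their part in these results was not tested.

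Of the 15 other ADAMTS proteases tested, 4 were called higher and 11 did not pass. Adamts20, which is known for versican cleavage in the skin and palate, had 4.02, 4.58, 4.73, 5.52 and 4.82 CPM in knockout replicates A, B, 14, D and 15, against 1.67 to 2.67 CPM in the wild-type hearts. It had the largest log2 fold change of the 4 (log2 fold change 1.13, SE 0.13, adjusted p = 0.000129 by edgeR), and it passed the threshold in every alternative tried. Adamts3 and Adamts2, procollagen N-proteinases, rose by 0.39 and 0.38, and Adamts17 by 0.30; with the naming style of the replicates (letter or number) as a covariate, Adamts2 and Adamts17 lost their calls (adjusted p = 0.0550 and 0.0631 by edgeR). Thsd4 was the 1 called of 6 other ADAMTS-like genes, with a log2 fold change of 0.63 (SE 0.17, adjusted p = 0.0271 by edgeR), opposite in sign to Adamtsl3. Among the 4 TIMP genes, whose proteins inhibit metalloproteases, Timp3 rose from 225 ± 4.16 to 310 ± 63.7 CPM without overlap (log2 fold change 0.46, SE 0.10, adjusted p = 0.0134 by edgeR), and the other 3 did not pass.

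Of 18 cushion and valve transcription factors, 4 were called higher, 2 lower, and 12 did not pass. Meox1 (0.59) and Scx (scleraxis, 0.47) rose. Prrx2 and Tbx2, the latter a repressor of chamber genes in the myocardium of the atrioventricular canal, fell by 0.58 and 0.56 on the log2 scale. Tbx2 had between 9.23 and 13.4 CPM in the knockout and between 14.2 and 21.6 CPM in the wild-type hearts. Nfatc1, a factor of the endocardium of valves (0.34), and Zeb1, a factor of mesenchymal cells (0.39), also rose and were chosen after their values were seen. The 6 endothelial and endocardial markers summed to between 1183 and 1330 CPM in the knockout and between 976 and 1169 CPM in the wild-type hearts, with 2 of the 6 called higher, and their part in the Nfatc1 result was not tested. The 11 SOX9-linked genes were matrix genes and the transcription factor genes Sox5 and Sox6. Of these 11, Sox6 (0.57, adjusted p = 0.000738 by edgeR) and Col9a1 (0.52, adjusted p = 0.0185) were called higher, while 9 did not pass.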

How the data were processed

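Total RNA of 11 hearts was made into stranded mRNA libraries (NEBNext Ultra II) and sequenced single-end on an Illumina NextSeq instrument, with 1 library per heart. Per the labels and the paper, the authors aligned them to GRCm38 using STAR (version not given in the sources used here) and deposited whole-number read counts per gene, without normalization or filtering. Reads that lie on more than 1 gene, or on none, are in no gene's count (19.6 to 22.4% of reads per heart) and were left out of library sizes. The column of sense-strand counts was used. Groups came from the sample titles.

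Symbols and positions came from GENCODE M21, which matched 55227 of 55487 identifiers. Genes with at least 10 reads over all hearts were kept. With edgeR 4.0.16 in R 4.3.3, counts were scaled by TMM and genotypes compared by the quasi-likelihood test; a gene was called at a Benjamini-Hochberg adjusted p under 0.05. Printed log2 fold changes are those of the fit. CPM means are arithmetic, with the SD over hearts. The test was checked on simulated data of 23539 genes. There edgeR recovered 89 of 100 genes changed by 1 and 58 of 100 changed by 0.5 on the log2 scale, with 7 wrong calls. DESeq2 recovered 94 and 75, with 35 wrong calls. The changed genes had a wild-type mean of at least 1 CPM, and counts were drawn with the spread that edgeR had fitted. Vcan, Cd44 and Adamts1 changed by less (0.33, 0.27 and 0.35), so these recovery rates do not cover them. DESeq2 1.42.0, other filters and scalings, both strands, a covariate (Xist, or whether a replicate is named by letter or number), and leaving out hearts were tried as alternatives. Intervals between hearts include biological spread; counting error alone would be smaller. Motifs were searched on both strands.

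The 10 genes, the related lists and the marker lists were chosen with earlier results of these data known. The text names all 10 genes, Pde2a, and from each related list up to 4 called genes with the largest log2 fold change in either direction and a mean of at least 1 CPM, with exceptions marked. The 2 alternatives that leave out several hearts were added after seeing the data.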

Additional observations from a re-analysis of the deposited data

How the results depend on the processing

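Adamtsl3 stayed the 1 gene called lower, and the 1 with a fold change of at least 2 (also the 1 at 1.5), in every alternative tried. The count called higher (3) was 4 with DESeq2, with Xist as a covariate and at an unadjusted p under 0.05, and between 2 and 4 when 1 heart was left out; without the 5 hearts with markers of other organs it was 0. The count over all genes (3532) lay between 1702 and 5052 when 1 heart was left out. It was 2230 without wild-type replicates 7 and 11, and 382 without all 5 hearts, where 4 hearts face 2. The related genes called (24) lay between 11 and 30 when 1 heart was left out, and were 13 and 2 in these 2 alternatives. With the naming style of the replicates as a covariate, 25 related genes were called and the calls of the 10 genes kept their counts (3 higher, 1 lower). Cthrc1 lost its call with Xist as a covariate (adjusted p = 0.0521 by edgeR) and without the filter on counts (0.0593). The median of the 10 genes lay between 0.13 and 0.30 when 1 heart was left out. The log2 fold change of Adamts5, which was never called, lay between -0.091 and 0.10 when 1 heart was left out and was -0.051 without the 5 hearts; that of Hapln1 was -0.21 there. The cause of these changes was not tested. Where hearts were left out, their smaller number and the loss of those particular hearts cannot be told apart. No paired analysis was possible because the genotypes share no replicate numbers. Depth limits Adamtsl3 most, at 79 to 356 reads per heart.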

Other observations

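None of the 10 genes had a heart that stood apart from the others of its genotype by Dixon's ratio of gap to range, over 20 gene and genotype groups; chance picks out about 1 in 20 such groups. Reads on the opposite strand of the 10 genes did not separate the genotypes for any of them. The 6 erythroid markers summed to between 1257 and 2129 CPM in the knockout hearts and between 925 and 3492 CPM in the wild-type hearts. The sums overlapped, but 4 of the 6 were called higher and the median log2 fold change of the 6 was 2.60. The 5 smooth muscle and pericyte markers summed to between 1194 and 1486 CPM and between 1326 and 1986 CPM, with 1 called lower. The neural crest and glial markers, cells that contribute to the outflow cushions, summed to between 4.48 and 7.47 CPM and between 4.97 and 9.24 CPM. Skeletal muscle markers reached 5.97 CPM in knockout replicate B and at most 4.05 CPM in any other heart.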
